A study of Mus musculus with 12 samples.

Results

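The mouse cytochrome P450 genes of families 1 to 3 were followed across liver libraries of 3 groups. Members were the rows of the deposited table whose symbol is Cyp followed by 1, 2 or 3, a subfamily letter and a number, with pseudogenes left out. The rule took 48 of 14822 genes and used no measured value. Polyadenylated RNA of mouse liver (whole tissue, C57BL6/J) was measured in 12 libraries, 4 in each group. The groups were a MASH-inducing diet with FGF21 at 1 mg/kg/day (called FGF21 below), the MASH-inducing diet with saline vehicle (MASH vehicle) and chow diet with saline vehicle (chow), each after 4 weeks of treatment. MASH stands for metabolic dysfunction-associated steatohepatitis, in which a fatty liver becomes inflamed and scarred. FGF21 is fibroblast growth factor 21, a circulating hormone that needs the co-receptor Klb beside an FGF receptor. All groups share 1 strain, and the sources used here state neither the age and sex of the mice nor the makeup of the diet. The labels do not say whether each library is a mouse of its own, so p-values measure the spread between these libraries, which may be technical.

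Enzymes of these families are heme proteins of the endoplasmic reticulum that oxidise drugs, pollutants, steroids, bile acids and fatty acids, and they draw electrons from NADPH through the reductase Por. In liver, Cyp1 genes answer to the aryl hydrocarbon receptor Ahr, Cyp2b genes to the receptor CAR (Nr1i3) and Cyp3a genes to the receptor PXR (Nr1i2). Many members are made mainly by hepatocytes around the central vein, and in rodents the pattern of growth hormone release gives several of them sex-biased levels.

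The values are TPM, transcript abundances scaled to a fixed total per library, which correct for gene length and so allow levels of different genes to be compared. Read numbers cannot be had back from TPM, so depth is unknown. By mean over the 12 libraries, 5 members stood above 1000 TPM, namely Cyp2e1 at 3306, Cyp2f2 at 1870, Cyp2d9 at 1831, Cyp2d10 at 1519.5 and Cyp2d26 at 1389 TPM. Another 13 lay between 100 and 1000 TPM, 9 between 10 and 100, 9 between 1 and 10 and 12 under 1 TPM. Genes entered the test with at least 1 TPM in at least 4 libraries, which 36 members passed. The 12 that did not pass reached at most 2.7 TPM in any library. They were Cyp1a1, Cyp1b1, Cyp2b13, Cyp2c39, Cyp2d11, Cyp2d12, Cyp2g1, Cyp2j8, Cyp2s1, Cyp2t4, Cyp3a44 and Cyp3a16, the last of which is listed at 0 in all 12 libraries. The subfamilies with several members lie in clusters (GENCODE M21, build GRCm38), with the 13 Cyp2c genes on chromosome 19 (39007019 to 44029208), the 8 Cyp2d genes on chromosome 15 (82370527 to 82794294), the 6 Cyp3a genes on chromosome 5 (137892932 to 146113287), the 4 Cyp2j genes on chromosome 4 (96444596 to 96664154) and the 2a, 2b, 2f, 2g, 2s and 2t genes on chromosome 7.

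Some neighbours within a cluster are near-identical copies, and how reads were split among those is uncertain. Of the 31-base words in its transcripts, Cyp2c40 shared 72.6% with other genes, Cyp2c67 67.6%, Cyp2c69 64.9%, Cyp2c68 62.0%, Cyp2a4 58.9%, Cyp2a5 54.6% and Cyp2d10 50.2%. Cyp2c23, Cyp2c70 and Cyp2r1 shared 0.0%, Cyp2j6 3.0%, Cyp2c55 3.4%, Cyp2j5 3.5%, Cyp2e1 5.8%, Cyp2d22 6.9%, Cyp1a2 7.7% and Cyp2c29 10.5%.

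Fewer cells of a type and less RNA per cell cannot be told apart in whole tissue, and the levels of cell type markers moved with the diet. All 7 macrophage markers were called higher in MASH vehicle than in chow, with summed levels of 439 to 582 TPM in MASH vehicle and 121 to 149 TPM in chow, as were 5 of 6 stellate cell and fibroblast markers and 4 of 5 endothelial markers. In that comparison 29.5% of all genes tested were called higher and 7.84% lower. Of 7 hepatocyte markers, 4 were called lower in MASH vehicle, and their sum was 51955 to 58219.8 TPM in MASH vehicle and 52808 to 64307 TPM in chow. FGF21 libraries had hepatocyte sums of 63912 to 72976 TPM and macrophage sums of 347 to 596 TPM, and 5 of 6 markers of recruited macrophages were called lower than in MASH vehicle, beside 4.28% of all genes. The part of the cell makeup in the P450 results was not tested. Markers of kidney, adrenal and gut, tissues with P450 genes of their own, had 3 of 5 genes in the table and 1 tested, and summed to 60.1 to 181 TPM in FGF21, 118 to 192 TPM in MASH vehicle and 82.4 to 178 TPM in chow. Nearly all of that sum was Fabp2, a fatty acid binding protein, while Star stayed at or below 1.1 TPM and the gut marker Vil1 at or below 0.2 TPM. FGF21 replicates 1 and 3 fell short of a total of 1000000 TPM by 7968 and 8206, against at most 1217 elsewhere. The adipocyte marker Adipoq, the only 1 of 3 listed with values, was at 2.0, 0.0, 1.9 and 0.0 TPM in FGF21. It was at or below 0.2 TPM in the other groups. Blood cell markers summed to 2290.1, 1004, 4391 and 897 TPM in FGF21, 1138 to 2436 TPM in MASH vehicle and 1008 to 1846 TPM in chow.

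Of the 36 tested members 18 fell on the MASH diet, and 5 rose and 2 fell with FGF21. In MASH vehicle against chow, limma called 1 of 36 tested members higher (2.78%) and 18 lower (50.0%), where 29.5% of all 10988 genes tested were called higher and 7.84% lower. In FGF21 against MASH vehicle, 5 members were called higher (13.9%) and 2 lower (5.56%), where 6.02% and 4.28% of all genes were. In FGF21 against chow, 6 members were called higher (16.7%) and 15 lower (41.7%), where 37.8% and 14.2% of all genes were. Each pair of comparisons shares 1 group of libraries, so their counts are not independent. By libraries alone, FGF21 lay wholly above MASH vehicle for 7 members and wholly below it for 4 (7.47% and 6.63% of all genes), MASH vehicle wholly above chow for 1 and wholly below it for 20 (33.1% and 9.52%), and FGF21 wholly above chow for 4 and wholly below it for 11 (30.5% and 5.99%). The median log2 fold change of the members was −0.38 in MASH vehicle against chow, 0.30 in FGF21 against MASH vehicle and −0.31 in FGF21 against chow, beside 0.19, −0.03 and 0.20 over all genes tested.

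The shift of all genes on the MASH diet depends on the scaling, while 18 to 20 members were called lower under each scaling tried. With median-of-ratios scaling the share of diet calls that were higher was 44.6% of all calls, against 79.0% on TPM, and 1 member was called higher and 20 lower, where 14.5% and 18% of all genes were. The members are poorer in G and C than other genes, with a median GC content of 43.6% beside 50.7% over all genes, and log2 fold changes rose with GC content over genes (Spearman's rho 0.42 in MASH vehicle against chow, 0.39 in FGF21 against MASH vehicle, 0.62 in FGF21 against chow). With that trend removed, 1 member was called higher and 18 lower on the diet, beside 12.5% and 12.6% of all genes, and 16 of the 19 original calls were kept. Cyp2a4, Cyp2j6 and Cyp2r1 lost theirs, while Cyp3a11 was called higher and Cyp2d10 and Cyp2u1 lower. With FGF21 against MASH vehicle, 9 were called higher and 2 lower in that setting, beside 4.66% and 5.0% of all genes. Without chow replicate 2 and FGF21 replicate 1, libraries that stood apart for several members, 4 members were called higher and 17 lower on the diet, beside 28.8% and 7.68% of all genes. With FGF21, 9 were then called higher and 8 lower, and the shares of all genes called were larger too, at 11.4% and 10.2%.

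**Figure D1:**
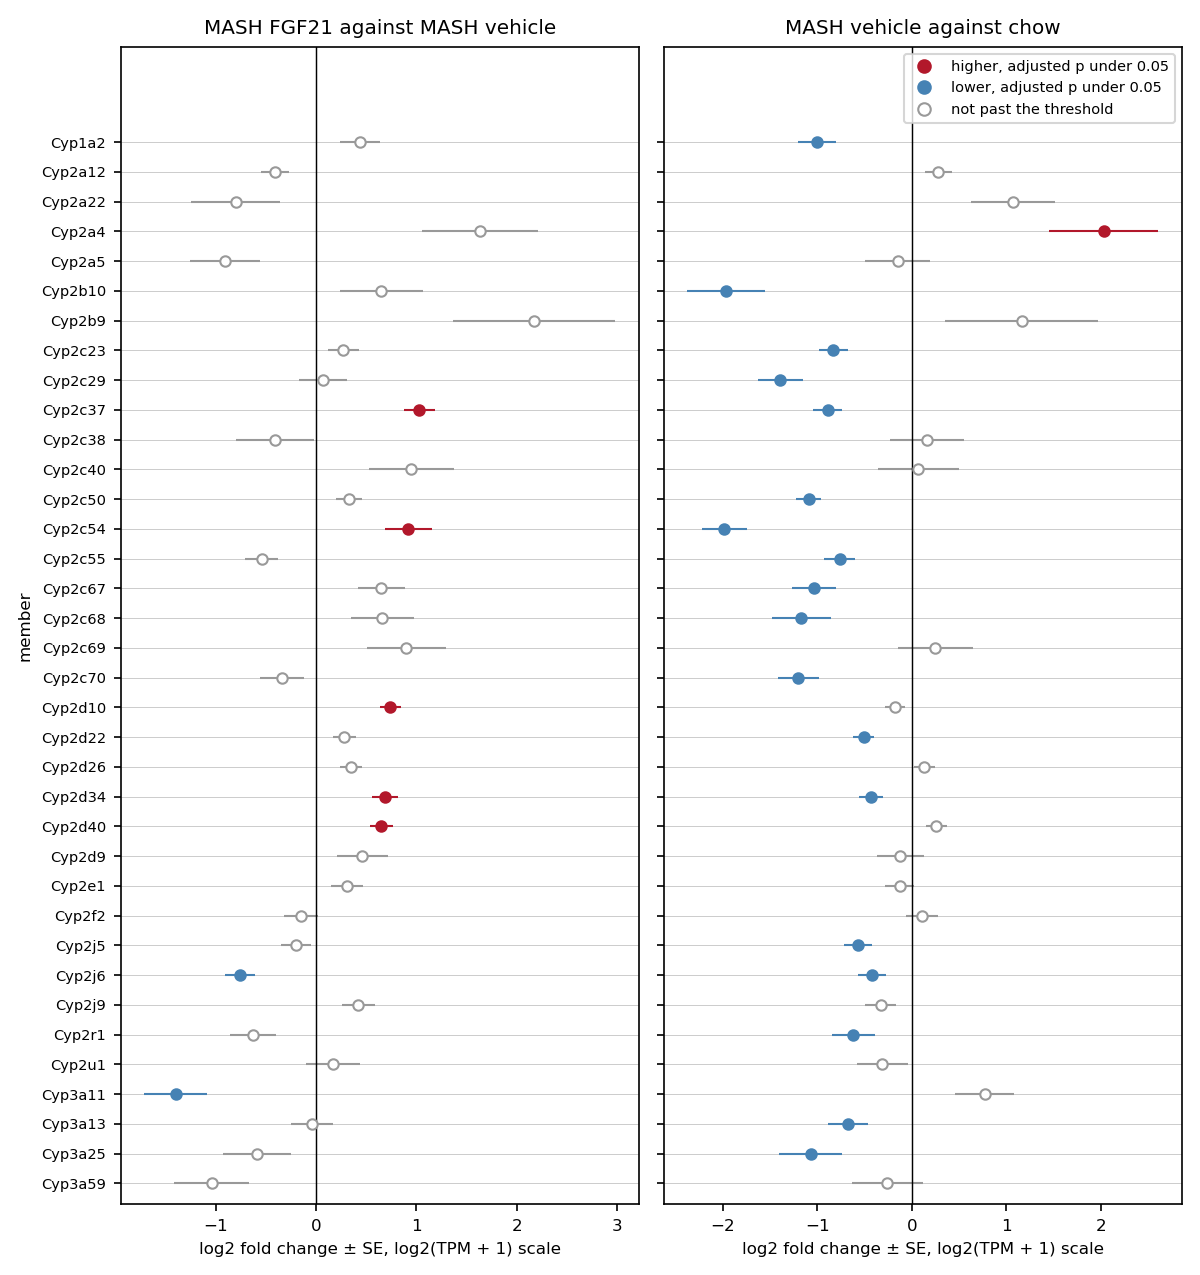
Log2 fold change with its standard error on the log2(TPM + 1) scale for the 36 tested members, in FGF21 against MASH vehicle (left) and in MASH vehicle against chow (right), with 4 libraries in each group. Filled red points are called higher, filled blue points called lower and open grey points not past an adjusted p of 0.05. On the right 18 points are blue and 1 is red, and on the left 2 are blue and 5 are red.

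**Figure D2:**
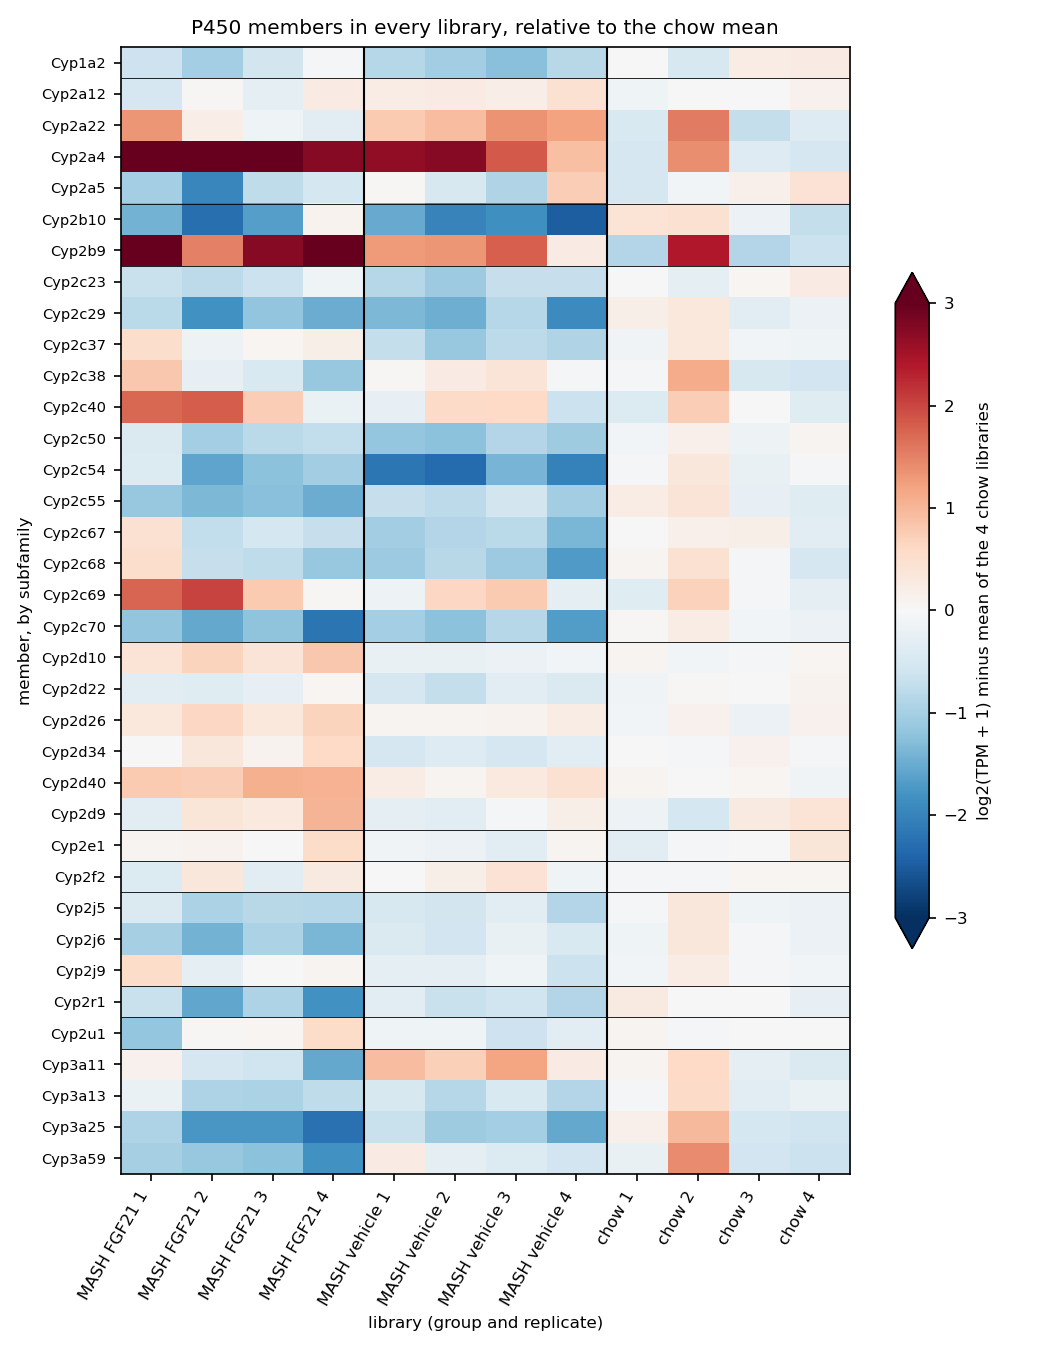
Difference of log2(TPM + 1) from the mean of the 4 chow libraries for each of the 36 tested members (rows, by subfamily) in each of the 12 libraries (columns: FGF21, MASH vehicle, chow). The Cyp2c29, Cyp2c50, Cyp2c54, Cyp2c55 and Cyp2c70 rows are blue in all 8 libraries of the MASH diet, the Cyp2d10 and Cyp2d40 rows are red in the 4 FGF21 libraries, and chow replicate 2 stands apart from the other chow libraries for Cyp2a22, Cyp2a4, Cyp2b9 and Cyp3a59.

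The Cyp2c subfamily, which makes epoxides and hydroxy acids from arachidonic acid and also oxidises drugs and bile acids, fell widely on the MASH diet. Of its 12 tested members 9 were called lower in MASH vehicle than in chow, with log2 fold changes between −1.98 and 0.25 over the 12. The 9 were Cyp2c23, Cyp2c29, Cyp2c37, Cyp2c50, Cyp2c54, Cyp2c55, Cyp2c67, Cyp2c68 and Cyp2c70, and their groups did not overlap. Summed over the 13 members, Cyp2c stood at 1227 ± 326 TPM in FGF21 (mean ± SD, n = 4 here and below), 943 ± 165 TPM in MASH vehicle and 2166 ± 289 TPM in chow.

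Cyp2c54, an epoxygenase, was at 123, 54.1, 69.4 and 78.8 TPM in the 4 FGF21 libraries, 35.5, 31.9, 61.0 and 39.2 TPM in MASH vehicle and 156, 206, 139 and 158 TPM in chow. Every chow library lay above every library of the MASH diet, and FGF21 overlapped MASH vehicle only through the highest MASH vehicle library. Its log2 fold change was −1.98 ± 0.238 (SE, adjusted p = 5.54e-05) in MASH vehicle against chow, 0.92 ± 0.238 (SE, adjusted p = 0.0284) in FGF21 against MASH vehicle and −1.06 ± 0.238 (SE, adjusted p = 0.00322) in FGF21 against chow. The rise with FGF21 was lost when FGF21 replicate 4 or MASH vehicle replicate 1, 2 or 4 was left out (adjusted p 0.0579, 0.0824, 0.0763 and 0.0683). Cyp2c29, the most abundant Cyp2c gene and also an epoxygenase, fell on the diet and was not called with FGF21. It was at 466, 229.6, 356 and 290.3 TPM in FGF21, 318, 294, 446 and 215 TPM in MASH vehicle and 917, 1012, 651 and 715 TPM in chow, so the MASH diet groups overlapped each other and lay below all chow libraries. Its log2 fold change was −1.39 ± 0.237 (SE, adjusted p = 0.000694) for the diet and 0.07 ± 0.237 (SE, adjusted p = 0.876) for FGF21 against MASH vehicle.

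Cyp2c37, another arachidonic acid oxidase, rose with FGF21. Its values were 206, 128, 148 and 160.1 TPM in FGF21, 86.2, 64.8, 81.9 and 75.5 TPM in MASH vehicle and 134, 176, 134 and 131 TPM in chow. All MASH vehicle libraries lay below those of the other groups, which overlapped each other. Cyp2c37 had a log2 fold change of 1.03 ± 0.151 (SE, adjusted p = 0.00179) in FGF21 against MASH vehicle, −0.89 ± 0.151 (SE, adjusted p = 0.000694) in MASH vehicle against chow and 0.15 ± 0.151 (SE, adjusted p = 0.426) in FGF21 against chow. Cyp2c37, Cyp2c50 and Cyp2c54 share 31-base words with each other, and the sum of the trio was 495 ± 108 TPM in FGF21, 318 ± 40.0 TPM in MASH vehicle and 732 ± 86.0 TPM in chow, without overlap between any of the groups. As TPM corrects for length and the copies differ in length, such a sum can still shift with how reads were split.

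Cyp2c70, which makes muricholic acids from chenodeoxycholic acid in mouse liver and so shapes the murine bile acid pool, was lower on the diet with or without FGF21. Its values were 78.1, 60.7, 77.2 and 38.3 TPM in FGF21, 88.1, 76.1, 98.3 and 54.9 TPM in MASH vehicle and 183, 209, 169 and 159 TPM in chow, and every chow library was above every other library. The log2 fold change was −1.20 ± 0.219 (SE, adjusted p = 0.00116) for the diet, −0.34 ± 0.219 (SE, adjusted p = 0.363) for FGF21 against MASH vehicle and −1.53 ± 0.219 (SE, adjusted p = 0.000255) for FGF21 against chow. Cyp2c55, a PXR and CAR target best known from the colon, was low throughout, at 0.4, 0.2, 0.3 and 0.1 TPM in FGF21, 0.9, 0.8, 1.1 and 0.5 TPM in MASH vehicle and 2.6, 3.0, 1.6 and 1.4 TPM in chow. The 3 groups did not overlap, and the log2 fold change was −0.76 ± 0.164 (SE, adjusted p = 0.00321) for the diet, −1.31 ± 0.164 (SE, adjusted p = 0.000115) in FGF21 against chow and −0.54 ± 0.164 (SE, adjusted p = 0.0517) in FGF21 against MASH vehicle. The last passed with a pseudocount of 0.1 (−1.44, adjusted p = 0.0163).

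The near-identical quartet Cyp2c40, Cyp2c67, Cyp2c68 and Cyp2c69 summed to 228 ± 112 TPM in FGF21, 133 ± 25.9 TPM in MASH vehicle and 279 ± 51.6 TPM in chow. FGF21 replicate 1 reached 395 TPM, above every other library, and the other 3 FGF21 libraries lay at 155 to 183.5 TPM, above all MASH vehicle libraries and below all chow libraries. Within the quartet the major copies Cyp2c67 and Cyp2c68 fell with the diet, and Cyp2c69 was at 4.2, 5.3, 1.7 and 0.6 TPM in FGF21, 0.4, 1.4, 1.7 and 0.3 TPM in MASH vehicle and 0.2, 1.5, 0.5 and 0.3 TPM in chow. Cyp2c69 was called higher in FGF21 than in chow (1.15 ± 0.392 (SE, adjusted p = 0.0263)), although the groups overlap, and the call was lost without FGF21 replicate 1 or 2 or chow replicate 1, 3 or 4 (adjusted p 0.0837, 0.0887, 0.0719, 0.0531 and 0.0654). The promoters of these copies were among the few with the motif CAAAGTCCA, a form bound by the hepatocyte factor HNF4A. In windows of 300 bases (250 before to 50 after the RefSeq start, build GRCm38.p6, both strands searched) the motif stood in 7 of the 41 members with a promoter in the table (17.1%), against 0.475% of all 32851 promoters. Other motifs were searched in the same windows (N is any base). TATAAA stood in 58.5% of members and 13.6% of all promoters, AGGTCA in 36.6% and 16.3%, and TTGCNNAA in 29.3% and 10.8%. GCGTG stood in 14.6% and 32.4%, and TTCNNNGAA in 0.0% and 8.3%. Members were counted per gene and the background per promoter, so the shares are not in the same unit. The 7 members with CAAAGTCCA were Cyp2c40, Cyp2c67, Cyp2c68, Cyp2c69, Cyp2c70, Cyp3a11 and Cyp3a16. They include the copies of the quartet, which are not independent of each other. The 250 bases before the start of 3 of them follow, 5′ to 3′, with the motif in capitals, because these genes carry the same motif and moved differently: Cyp2c67 and Cyp2c70 fell with the diet, and Cyp3a11 fell with FGF21. They lie at chr19:39649043-39649292, chr19:40187287-40187536 and chr5:145879855-145880104, all on the minus strand. A match is a description of the letters and not a measured binding site.
Cyp2c67: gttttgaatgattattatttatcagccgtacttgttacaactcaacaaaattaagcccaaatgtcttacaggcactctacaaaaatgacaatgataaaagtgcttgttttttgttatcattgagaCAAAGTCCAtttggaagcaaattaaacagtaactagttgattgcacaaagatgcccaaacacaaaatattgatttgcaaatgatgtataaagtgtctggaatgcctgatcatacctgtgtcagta
Cyp2c70: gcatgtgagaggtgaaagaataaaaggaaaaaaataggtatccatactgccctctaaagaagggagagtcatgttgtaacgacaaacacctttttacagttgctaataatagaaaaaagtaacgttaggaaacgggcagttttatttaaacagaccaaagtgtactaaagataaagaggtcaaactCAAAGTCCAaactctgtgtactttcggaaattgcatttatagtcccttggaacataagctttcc
Cyp3a11: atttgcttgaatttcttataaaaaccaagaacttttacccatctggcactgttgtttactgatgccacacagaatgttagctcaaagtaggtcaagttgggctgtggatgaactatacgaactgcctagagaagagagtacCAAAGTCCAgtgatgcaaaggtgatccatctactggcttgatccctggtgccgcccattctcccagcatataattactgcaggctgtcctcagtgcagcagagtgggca

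**Figure D3:**
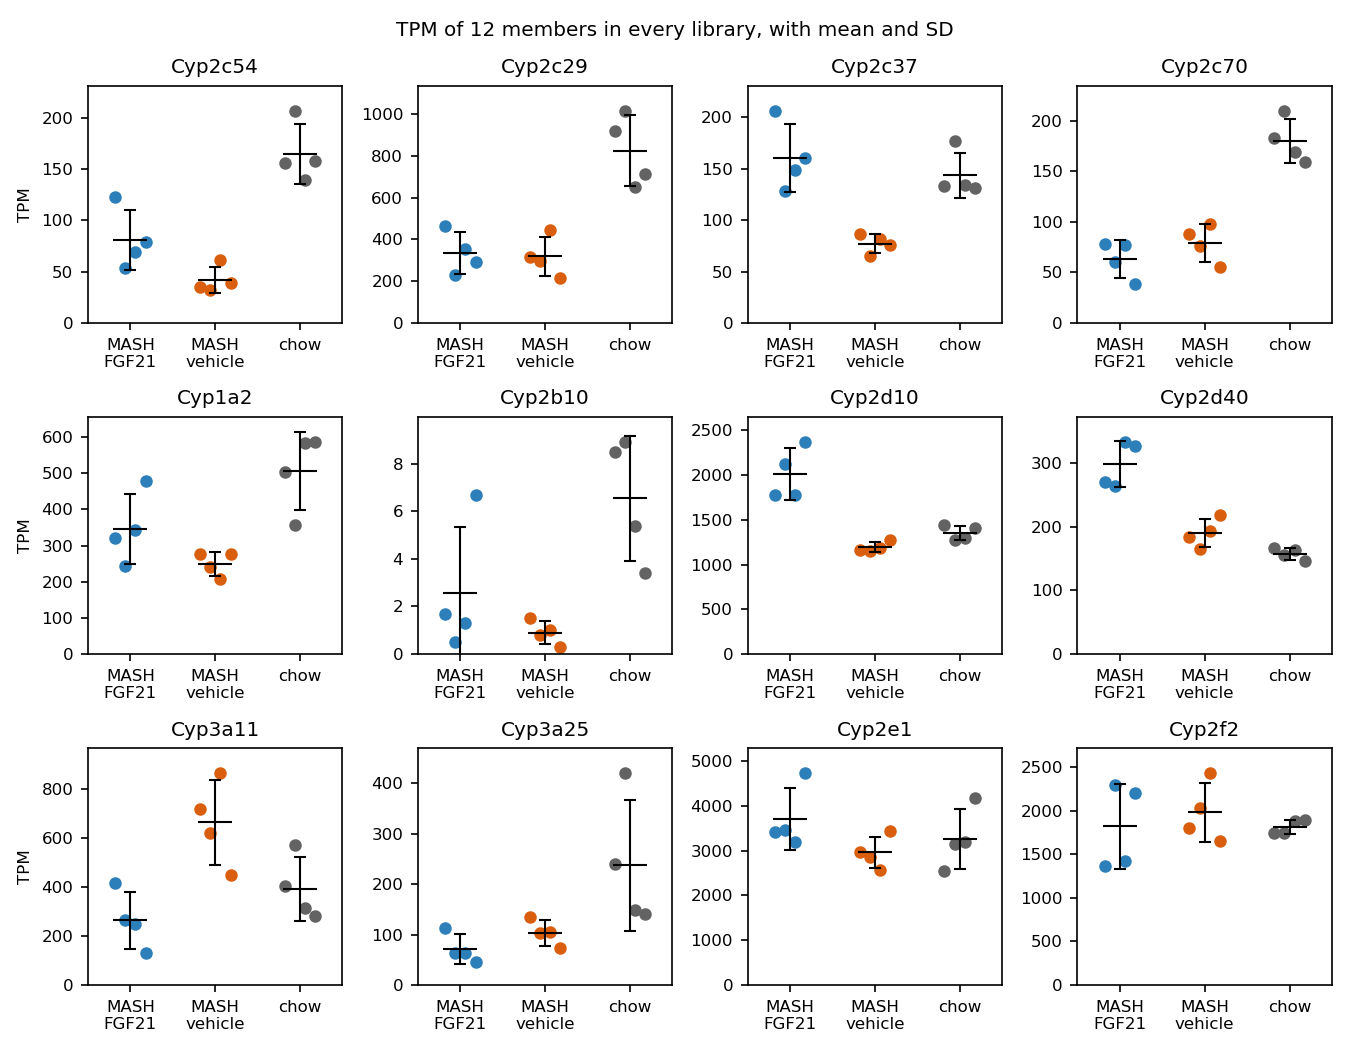
TPM (y axis, from 0) of 12 members in each library of FGF21, MASH vehicle and chow, with the mean as a bar and the SD as whiskers (n = 4). Chow points of Cyp2c54, Cyp2c29 and Cyp2c70 lie above all others, MASH vehicle points of Cyp2c37 lie below all others, FGF21 points of Cyp2d10 and Cyp2d40 lie above all others, and Cyp2e1 and Cyp2f2 overlap in all groups.

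The Cyp3a subfamily, the main drug oxidases under PXR, held members that fell on the diet and one that fell with FGF21. Cyp3a11, the counterpart of human CYP3A4, was at 413, 264, 249 and 129 TPM in FGF21, 718, 620.2, 862 and 447 TPM in MASH vehicle and 402, 571, 314 and 281 TPM in chow. All FGF21 libraries lay below all MASH vehicle libraries, and chow overlapped each of them. Cyp3a11 fell in FGF21 against MASH vehicle with a log2 fold change of −1.40 ± 0.314 (SE, adjusted p = 0.0151), a call kept in every alternative tried. The values for MASH vehicle against chow were 0.77 ± 0.314 (SE, adjusted p = 0.068). That difference passed as higher in MASH vehicle in some alternatives and not in others. It passed with the GC trend removed (1.07, adjusted p = 0.00389), with the replicate block (0.77, adjusted p = 0.0141) and without chow replicate 2 (0.97, adjusted p = 0.0389), among others. In FGF21 against chow the values were −0.63 ± 0.314 (SE, adjusted p = 0.106), and some alternatives passed as lower, such as median-of-ratios scaling (−0.84, adjusted p = 0.041). Cyp3a25, a testosterone hydroxylase, was at 113, 63.1, 63.4 and 44.9 TPM in FGF21, 136, 102, 105 and 72.9 TPM in MASH vehicle and 239.6, 419.8, 149 and 142 TPM in chow. Every MASH vehicle library lay below every chow library, FGF21 overlapped MASH vehicle, and chow replicate 2 was far above the rest. For Cyp3a25 the log2 fold change was −1.07 ± 0.335 (SE, adjusted p = 0.0236) for the diet, −0.59 ± 0.335 (SE, adjusted p = 0.29) for FGF21 against MASH vehicle and −1.66 ± 0.335 (SE, adjusted p = 0.00176) for FGF21 against chow. The diet call was lost without MASH vehicle replicate 2 or 4 or chow replicate 1 or 2 (adjusted p 0.0524, 0.0746, 0.0595 and 0.069). Within a library the level of Cyp3a11 was 3.66 ± 0.566 times that of Cyp3a25 in FGF21, 6.43 ± 1.26 times in MASH vehicle and 1.78 ± 0.334 times in chow, with no overlap between the groups. Cyp3a13 was called lower in both groups of the MASH diet than in chow (−0.67 ± 0.211 (SE, adjusted p = 0.0243) for MASH vehicle and −0.71 ± 0.211 (SE, adjusted p = 0.0138) for FGF21), and Cyp3a59 was called lower in FGF21 than in chow (−1.30 ± 0.374 (SE, adjusted p = 0.0118)). The Cyp3a13 call on the diet was lost without MASH vehicle replicate 2 or 4 or chow replicate 2 (adjusted p 0.0699 to 0.0741), and both calls of FGF21 against chow were lost with the GC trend removed (adjusted p = 0.07 for Cyp3a13 and 0.059 for Cyp3a59).

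The Cyp2d subfamily, relatives of the human drug oxidase CYP2D6, held 3 of the 5 members that rose with FGF21. The 3 were among 6 tested, and the log2 fold changes of the 6 were 0.28 to 0.74. Summed over 8 members, Cyp2d stood at 6368 ± 1338 TPM in FGF21, 4366 ± 399.6 TPM in MASH vehicle and 4604 ± 503 TPM in chow, and all FGF21 libraries lay above all MASH vehicle libraries. Cyp2d10 was at 1779.8, 2129, 1777 and 2366 TPM in FGF21, 1164, 1148, 1190.5 and 1273 TPM in MASH vehicle and 1439, 1269.8, 1296 and 1403 TPM in chow, with FGF21 above every other library. Its log2 fold change was 0.74 ± 0.106 (SE, adjusted p = 0.00156) in FGF21 against MASH vehicle. Against chow the rise was 0.57 ± 0.106 (SE, adjusted p = 0.00115), and it was 0.10 with the GC trend removed (adjusted p = 0.474). The sum of Cyp2d9, Cyp2d10, Cyp2d11 and Cyp2d12, which share 31-base words, was 4239 ± 1109 TPM in FGF21, 2745 ± 312 TPM in MASH vehicle and 3071 ± 512 TPM in chow. Here FGF21 replicate 1 (3127 TPM) lay below MASH vehicle replicate 4 (3155 TPM) and chow replicates 3 and 4. The groups of that sum overlapped. Cyp2d40 was at 269.6, 264, 332 and 326 TPM in FGF21, 184, 165, 193 and 218 TPM in MASH vehicle and 166, 155, 163 and 145 TPM in chow, again with FGF21 above all others. Its log2 fold change was 0.65 ± 0.112 (SE, adjusted p = 0.00469) against MASH vehicle and 0.91 ± 0.112 (SE, adjusted p = 0.000104) against chow.

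Cyp2d34 was a scarce member, at 2.5, 3.5, 2.8 and 4.4 TPM in FGF21, 1.5, 1.7, 1.5 and 1.8 TPM in MASH vehicle and 2.5, 2.4, 2.9 and 2.4 TPM in chow. MASH vehicle lay below both other groups, with a log2 fold change of 0.69 ± 0.13 (SE, adjusted p = 0.00685) for FGF21 against MASH vehicle and −0.43 ± 0.13 (SE, adjusted p = 0.0196) for MASH vehicle against chow. The call on the diet was lost without chow replicate 3 (adjusted p = 0.0561). Cyp2d9, a steroid 16-alpha-hydroxylase that is male-biased in mouse liver and the most abundant Cyp2d gene, was at 1346, 2154, 2027 and 3375 TPM in FGF21, 1377, 1317, 1627 and 1880.5 TPM in MASH vehicle and 1500.5, 1155, 2000.4 and 2216 TPM in chow. Its groups overlapped, and no comparison passed (0.46 ± 0.253 (SE, adjusted p = 0.277) in FGF21 against MASH vehicle). Cyp2d26 had FGF21 libraries at 1481 to 1897.5 TPM, MASH vehicle at 1265 to 1394 TPM and chow at 1051 to 1298.5 TPM, and was called higher in FGF21 than in chow only (0.48 ± 0.111 (SE, adjusted p = 0.00355)), a call lost with median-of-ratios scaling (adjusted p = 0.0684) and with the GC trend removed (adjusted p = 0.787). Within a library Cyp2d10 was 1.20 ± 0.0322 times Cyp2d26 in FGF21, 0.917 ± 0.00965 times in MASH vehicle and 1.14 ± 0.136 times in chow, so Cyp2d10 was the lower of the pair in every MASH vehicle library. The ratio did not overlap between FGF21 and MASH vehicle. Cyp2d22 was called lower on the diet (−0.51 ± 0.115 (SE, adjusted p = 0.00468)).

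**Figure D4:**
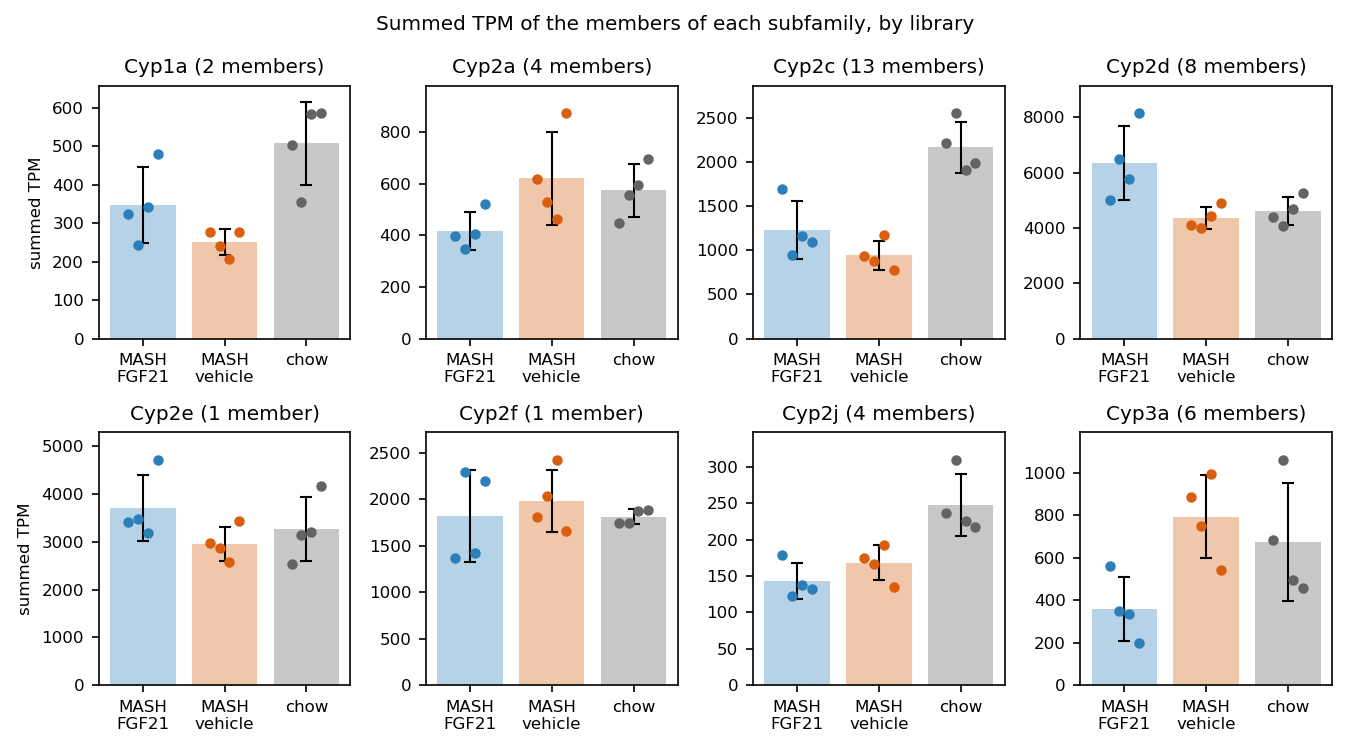
Summed TPM of the members of 8 subfamilies in each library (points), with the group mean (bar, from 0) and SD (whisker, n = 4), for FGF21, MASH vehicle and chow. Cyp2c is highest in chow without overlap, Cyp2d is higher in every FGF21 library than in every MASH vehicle library, and Cyp2e and Cyp2f overlap between all groups.

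Cyp1a2, the AHR target that oxidises caffeine and arylamines, was at 322, 243, 342 and 478 TPM in FGF21, 276, 239.5, 207 and 277 TPM in MASH vehicle and 503, 356, 584 and 586 TPM in chow. MASH vehicle lay below all chow libraries, and FGF21 overlapped both. The log2 fold change was −1.0 ± 0.2 (SE, adjusted p = 0.00207) for the diet and 0.44 ± 0.2 (SE, adjusted p = 0.184) for FGF21 against MASH vehicle. In FGF21 against chow it was −0.56 ± 0.2 (SE, adjusted p = 0.0313), a call lost without FGF21 replicate 2 or 3 or chow replicate 1, 3 or 4 (adjusted p 0.0549 to 0.105). Cyp1a1 and Cyp1b1, also AHR targets, stayed at or below 0.5 and 0.3 TPM. The receptor Ahr averaged 5.9 ± 0.99 TPM in FGF21, 4.35 ± 0.656 TPM in MASH vehicle and 4.3 ± 0.606 TPM in chow, and its partner Arnt was called higher on the diet (0.39, adjusted p = 0.0437). Among the 5 tested AHR targets outside the family, 2 were called higher on the diet (Nfe2l2 and Ugt1a6a) and 1 lower (Tiparp, −0.41, adjusted p = 0.0353), beside 29.5% and 7.84% of all genes. With FGF21 against MASH vehicle 1 was called lower (Nqo1, −0.87, adjusted p = 0.00781), beside 4.28% of all genes.

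Cyp2b10, the classic CAR target, was at 1.7, 0.5, 1.3 and 6.7 TPM in FGF21, 1.5, 0.8, 1.0 and 0.3 TPM in MASH vehicle and 8.5, 8.9, 5.4 and 3.4 TPM in chow. All MASH vehicle libraries lay below all chow libraries, while FGF21 spread across both. The log2 fold change was −1.96 ± 0.411 (SE, adjusted p = 0.00286) for the diet and 0.65 ± 0.411 (SE, adjusted p = 0.343) for FGF21 against MASH vehicle. In FGF21 against chow it was −1.30 ± 0.411 (SE, adjusted p = 0.0184), a call lost without FGF21 replicate 2 or 3 or chow replicate 1 or 2 (adjusted p 0.0504 to 0.0636). Of 12 listed CAR and PXR targets outside the family 10 were tested, and in MASH vehicle against chow 5 were called higher and 1 lower, beside 29.5% and 7.84% of all genes. Those higher were the glutathione transferases Gsta1 (1.70, adjusted p = 0.000929) and Gstm3 (2.02, adjusted p = 0.000137), the exporter Abcc3, the glucuronosyltransferase Ugt1a1 and the stress gene Gadd45b, and the lower one was the transporter Slco1a4 (−1.81, adjusted p = 0.00174). FGF21 against MASH vehicle had 2 of the 10 called lower, beside 4.28% of all genes, namely Gsta1 (−3.16, adjusted p = 0.000115) and Gstm3 (−2.96, adjusted p = 0.000115).

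Of 15 listed receptors and factors that control P450 genes, all tested, limma called 5 higher on the diet, a share near the 29.5% of all genes, and 0 lower (0 lower at an unadjusted p under 0.05): PXR (Nr1i2, 0.56, adjusted p = 0.0205), Ppara (0.68, adjusted p = 0.0314), Nfe2l2, Cebpb and Arnt. Over all genes 7.84% were called lower on the diet, and 5371 of 10988 had an unadjusted p under 0.05 in either direction. With FGF21 against MASH vehicle 1 of the 15 receptors and factors was called, the shared partner Rxra, which rose (0.74, adjusted p = 0.0196). That share is near the 6.02% of all genes. Against chow, FGF21 had 8 called higher, beside 37.8% of all genes, among them Hnf4a (0.94, adjusted p = 0.00385) and CAR (Nr1i3, 0.68, adjusted p = 0.00772). Esr1 alone was called lower, beside 14.2% of all genes. Of 15 genes of electron supply and heme, 6 were called higher on the diet, again beside 29.5% of all genes. Among them were heme oxygenase Hmox1, which degrades heme (1.35, adjusted p = 2.91e-05), Blvrb, and Alad, Urod and Cpox, which make heme. With FGF21 against MASH vehicle 1 of these 15 was called, Hmox1, which fell (−0.65, adjusted p = 0.0167), beside 4.28% of all genes.

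Of the female-biased members, Cyp2a4, Cyp2b9 and Cyp2c69 were called higher in FGF21 than in chow, and Cyp2a4 was called higher in MASH vehicle than in chow. Cyp2a4, a steroid 15-alpha-hydroxylase that is female-biased in mouse liver, was at 61.5, 12.1, 16.8 and 9.4 TPM in FGF21, 8.9, 9.3, 4.6 and 1.9 TPM in MASH vehicle and 0.1, 3.1, 0.2 and 0.1 TPM in chow. FGF21 libraries lay above all others, and chow replicate 2 stood above the other chow libraries and above 1 MASH vehicle library. The log2 fold change was 1.63 ± 0.577 (SE, adjusted p = 0.0901) in FGF21 against MASH vehicle, 2.03 ± 0.577 (SE, adjusted p = 0.0153) in MASH vehicle against chow and 3.66 ± 0.577 (SE, adjusted p = 0.000424) in FGF21 against chow. The diet call was lost without MASH vehicle replicate 2 or chow replicate 3 or 4 (adjusted p 0.0516, 0.052 and 0.0517). Cyp2b9, also female-biased, was at 92.6, 4.8, 12.4 and 22.5 TPM in FGF21, 3.9, 4.1, 6.0 and 1.4 TPM in MASH vehicle and 0.1, 9.7, 0.1 and 0.3 TPM in chow, with chow replicate 2 above every MASH vehicle library and FGF21 replicate 1 above all. Its log2 fold change was 3.33 ± 0.81 (SE, adjusted p = 0.00503) in FGF21 against chow and 2.17 ± 0.81 (SE, adjusted p = 0.109) in FGF21 against MASH vehicle. Without FGF21 replicates 1 and 3 the rise against chow was 2.53 (adjusted p = 0.0617).

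Cyp2a5, the coumarin hydroxylase, lies in the same cluster as Cyp2a4 and differs little from it in sequence. It was at 155, 81.3, 187 and 218 TPM in FGF21, 323, 228, 169 and 529.5 TPM in MASH vehicle and 224, 300.3, 352 and 426 TPM in chow. FGF21 lay below all chow libraries and overlapped MASH vehicle, with a log2 fold change of −1.07 ± 0.347 (SE, adjusted p = 0.0214) against chow and −0.91 ± 0.347 (SE, adjusted p = 0.115) against MASH vehicle. The call against chow was lost without FGF21 replicate 2 or chow replicate 4 (adjusted p 0.0722 and 0.0556). For every 100 TPM of Cyp2a5 there were 39.6, 14.9, 8.97 and 4.3 TPM of Cyp2a4 in FGF21, 2.76, 4.08, 2.73 and 0.359 in MASH vehicle and 0.0447, 1.03, 0.0569 and 0.0235 in chow. The ratio was higher in every FGF21 library than in every other library. How reads were split between the pair is uncertain, and the sum of both was 186 ± 62.2 TPM in FGF21, 318 ± 156 TPM in MASH vehicle and 326 ± 84.9 TPM in chow. Their promoters are printed because they are almost the same while Cyp2a4 was called higher and Cyp2a5 lower in FGF21 than in chow. Over the 250 bases before the RefSeq start (GRCm38.p6, plus strand, chr7:26306942-26307191 for Cyp2a4 and chr7:26835089-26835338 for Cyp2a5) 245 positions were identical, 4 were substitutions and 2 were gaps. Capitals mark the bases that differ.
Cyp2a4: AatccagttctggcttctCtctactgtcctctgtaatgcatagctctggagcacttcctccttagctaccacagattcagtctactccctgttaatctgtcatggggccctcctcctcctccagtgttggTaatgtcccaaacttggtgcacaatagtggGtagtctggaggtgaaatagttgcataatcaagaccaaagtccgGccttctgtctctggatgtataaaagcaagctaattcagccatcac
Cyp2a5: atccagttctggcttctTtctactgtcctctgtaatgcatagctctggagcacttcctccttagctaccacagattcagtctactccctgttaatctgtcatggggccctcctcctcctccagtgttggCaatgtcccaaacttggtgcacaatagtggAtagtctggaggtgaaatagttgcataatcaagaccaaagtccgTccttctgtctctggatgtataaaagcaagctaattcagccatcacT

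The 8 listed female-biased members (Cyp2a4, Cyp2b9, Cyp2b13, Cyp2c39, Cyp2c40, Cyp2c69, Cyp3a16 and Cyp3a44) summed to 172, 34.1, 36.7 and 35.5 TPM in FGF21, 16.1, 19.8, 17.7 and 5.8 TPM in MASH vehicle and 3.1, 22.0, 3.9 and 3.1 TPM in chow. Every FGF21 library was above every other library, and chow replicate 2 was above all MASH vehicle libraries. Of the 4 tested, limma called 3 higher in FGF21 than in chow and 1 higher in MASH vehicle than in chow, beside 37.8% and 29.5% of all genes. In FGF21 against MASH vehicle it called 0, with 4 higher at an unadjusted p under 0.05. In that comparison 2842 of all 10988 genes tested had such a p, in either direction. Cyp2c39, which was not tested, averaged 0.275 TPM in FGF21, 0.7 TPM in MASH vehicle and 1.2 TPM in chow. Of 10 listed female-biased genes outside the family 3 were tested. On the diet 0 of them were called higher and 1 lower, beside 29.5% and 7.84% of all genes. With FGF21, 0 were called against MASH vehicle and 1 was higher against chow, beside 37.8% of all genes. The 6 with values summed to 39.8 to 80.5 TPM in FGF21 and 31.3 to 37.1 TPM in MASH vehicle. In chow they summed to 29.7 to 106 TPM, highest in replicate 2. Among them Prlr averaged 16.1 TPM in FGF21, 8.97 TPM in MASH vehicle and 25.8 TPM in chow. The 12 male-biased genes outside the family summed to 2297 to 2984 TPM in FGF21, 4455 to 5992 TPM in MASH vehicle and 6001 to 15243 TPM in chow, where the lowest chow library was replicate 2. Most of that sum was Mup20, a urinary pheromone carrier, which averaged 1601 TPM in FGF21, 4158 TPM in MASH vehicle and 8790.4 TPM in chow. The 12 did not share a direction with FGF21 against MASH vehicle. At an unadjusted p under 0.05, 3 were higher and 3 lower, beside the same 2842 of all 10988 genes. Hsd3b5 averaged 71.4 TPM in FGF21 and 23.2 TPM in MASH vehicle (1.37, adjusted p = 0.17). Elovl3 averaged 199.8 TPM in FGF21 and 122 TPM in MASH vehicle (0.70, adjusted p = 0.0943). Cyp7b1 averaged 44.9 TPM in FGF21 and 32 TPM in MASH vehicle (0.49, adjusted p = 0.0693). The 3 called lower, beside 4.28% of all genes, were Cyp4a12a (−1.70, adjusted p = 0.00168), Cyp4a12b (−1.96, adjusted p = 0.00127) and Mup20 (−1.43, adjusted p = 0.00858). Of 11 listed genes of the growth hormone axis 9 were tested. In MASH vehicle against chow 2 were called lower, the receptor Ghr (−0.95, adjusted p = 0.000495) and its target Igf1 (−0.50, adjusted p = 0.00354). Stat5a was called higher (0.79, adjusted p = 0.00214), and the shares of all genes were 7.84% lower and 29.5% higher. Among those not called on the diet, Socs2 averaged 10.1 TPM in MASH vehicle and 8.22 TPM in chow, and Cish 16.2 and 28.8 TPM. In FGF21 against MASH vehicle 1 of the 9 was called, Stat5b, which was higher (0.76, adjusted p = 0.0204), beside 6.02% of all genes.

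**Figure D5:**
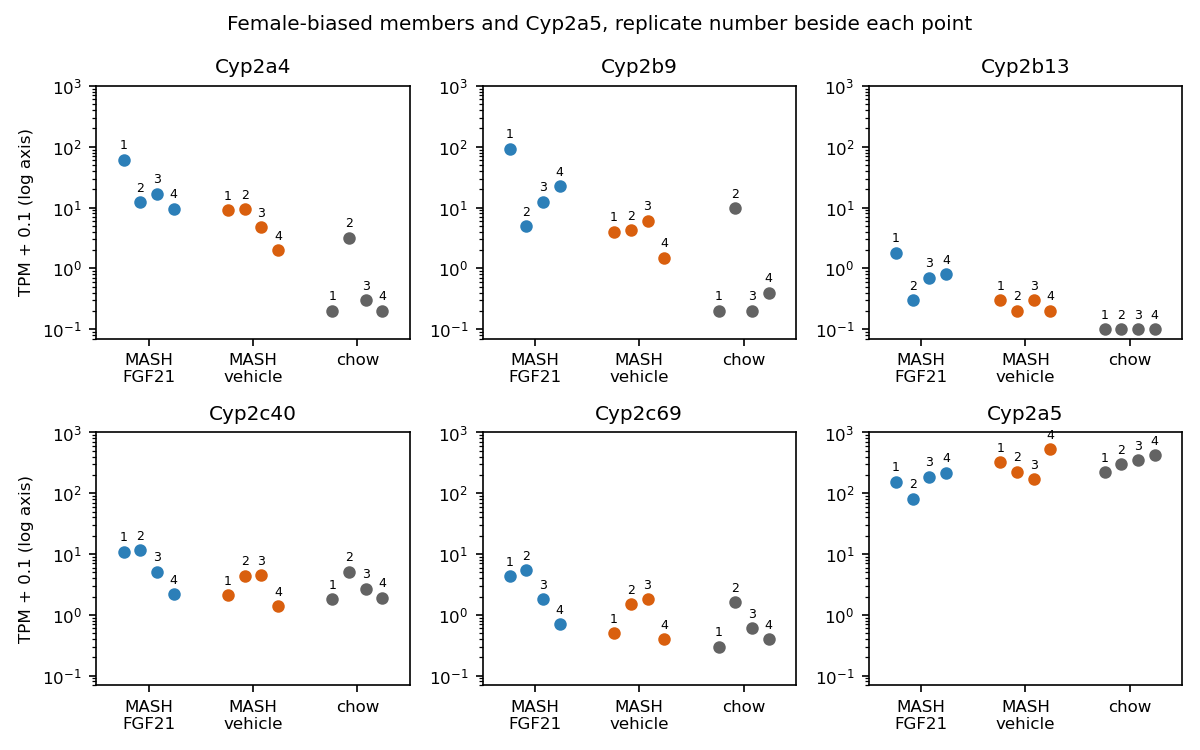
TPM plus 0.1 on a log axis for 5 female-biased members and for Cyp2a5 in each library of FGF21, MASH vehicle and chow, with the replicate number beside each point. For Cyp2a4 all FGF21 points lie above all others, for Cyp2b13 the 4 chow libraries are at 0, and chow replicate 2 is the highest chow library for Cyp2a4, Cyp2b9, Cyp2c40 and Cyp2c69.

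The 3 most abundant members, Cyp2e1, Cyp2f2 and Cyp2d9, were not called in any comparison. Cyp2e1, which oxidises ethanol and paracetamol around the central vein, was at 3419.9, 3467, 3192 and 4721 TPM in FGF21, 2969, 2862, 2572 and 3426 TPM in MASH vehicle and 2542, 3142, 3197 and 4164 TPM in chow. The 3 groups overlapped, and the log2 fold change was 0.31 ± 0.158 (SE, adjusted p = 0.233) in FGF21 against MASH vehicle and −0.13 ± 0.158 (SE, adjusted p = 0.541) in MASH vehicle against chow. Cyp2f2, which activates naphthalene and marks hepatocytes around the portal vein, was at 1365, 2289, 1423 and 2196 TPM in FGF21, 1806, 2034, 2427 and 1653 TPM in MASH vehicle and 1743, 1739.6, 1876 and 1889 TPM in chow. Its groups overlapped too, with −0.15 ± 0.172 (SE, adjusted p = 0.628) and 0.11 ± 0.172 (SE, adjusted p = 0.617) for the same contrasts. Of 12 periportal genes outside the family 8 were called lower and 1 higher in MASH vehicle than in chow, with summed levels of 7845 to 10884 TPM in MASH vehicle and 15761 to 18094 TPM in chow, and examples were the urea cycle genes Ass1 (−1.39, adjusted p = 0.000101) and Asl (−1.36, adjusted p = 4.18e-05). Of 12 pericentral genes outside the family 2 were called higher, among them Glul (1.17, adjusted p = 0.000476), and 1 lower. Of the 8 pericentral members 0 were called higher and 5 lower. Over all genes tested, 29.5% were called higher and 7.84% lower in the same comparison.

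Cyp2j6, an arachidonic acid epoxygenase also found in gut, was at 9.4, 6.7, 9.7 and 7.0 TPM in FGF21, 14.3, 12.9, 16.8 and 14.0 TPM in MASH vehicle and 17.9, 25.4, 19.1 and 17.3 TPM in chow, so that the 3 groups did not overlap, with FGF21 lowest. Its log2 fold change was −0.76 ± 0.152 (SE, adjusted p = 0.0091) in FGF21 against MASH vehicle, −0.42 ± 0.152 (SE, adjusted p = 0.0433) in MASH vehicle against chow and −1.19 ± 0.152 (SE, adjusted p = 0.000131) in FGF21 against chow. The diet call was lost without MASH vehicle replicate 1, 2 or 4 or chow replicate 1, 2 or 3 (adjusted p 0.0557 to 0.134) and with the GC trend removed (adjusted p = 0.13). Cyp2j5, an epoxygenase of liver and kidney, was at 165, 114, 126 and 122 TPM in FGF21, 158, 152, 174 and 120 TPM in MASH vehicle and 216, 281, 203 and 198 TPM in chow. The chow libraries lay above all others, and the log2 fold change was −0.57 ± 0.152 (SE, adjusted p = 0.0117) for the diet and −0.20 ± 0.152 (SE, adjusted p = 0.44) for FGF21 against MASH vehicle.

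Cyp2r1, the vitamin D 25-hydroxylase, was at 5.7, 2.6, 4.6 and 2.0 TPM in FGF21, 7.5, 5.7, 6.0 and 4.8 TPM in MASH vehicle and 11.9, 9.6, 9.5 and 7.9 TPM in chow. All chow libraries lay above all MASH diet libraries. Cyp2r1 had a log2 fold change of −1.24 ± 0.226 (SE, adjusted p = 0.000964) in FGF21 against chow and −0.62 ± 0.226 (SE, adjusted p = 0.046) in MASH vehicle against chow. The call on the diet was lost without any 1 of MASH vehicle replicates 2, 3 and 4 and chow replicates 1, 2 and 3 (adjusted p 0.0746 to 0.124). Cyp2u1, a fatty acid hydroxylase, was at 7.0, 17.4, 17.8 and 25.2 TPM in FGF21, 15.4, 15.5, 10.7 and 13.1 TPM in MASH vehicle and 18.1, 16.2, 16.8 and 16.9 TPM in chow, and was not called in any comparison. Cyp2s1 stayed at or below 1.1 TPM, Cyp2g1, an enzyme of the nasal mucosa, at or below 0.5 TPM and Cyp2t4 at or below 0.3 TPM. The 9 tested members without a call in any comparison were Cyp2a12, Cyp2a22, Cyp2c38, Cyp2c40, Cyp2d9, Cyp2e1, Cyp2f2, Cyp2j9 and Cyp2u1.

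Summed over all 48 members the level was 14437 ± 2179 TPM in FGF21, 12103 ± 534 TPM in MASH vehicle and 13883 ± 1026 TPM in chow. All MASH vehicle libraries (11497 to 12611 TPM) lay below all libraries of the other groups.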

How the data were processed

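The authors deposited 1 table of TPM per gene and library, rounded to 1 decimal. Its sheet is named FPKM per the file headers, but the columns sum to just under 1000000, so the values were read as TPM, and the test planned for a normalized value was kept. Per the submitters' processing notes the tools were Salmon 1.10.2 and Trim Galore 6.10 and the build was mm10, with no annotation named. Depth is unknown, and no counting interval can be given. All 12 columns were matched to libraries by the names in the labels.

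A model with 3 groups was fitted to log2(TPM + 1) of all 10988 genes with at least 1 TPM in at least 4 libraries, in limma 3.58.1 (R 4.3.3) with its trend and robust options. Tests were two-sided, with Benjamini-Hochberg adjustment over all genes tested and a threshold of 0.05. Fold changes on this scale understate the change of low genes. The fit was tested on simulated data. Sums over members are descriptions with no test. GC content (10810 genes, 98.4%), coordinates and shared 31-base words came from GENCODE M21 (GRCm38, the assembly also called mm10), and promoters of 41 members from RefSeq (GRCm38.p6), aligned with Biopython 1.88. Members given with values in every library are the 4 largest rises and falls among called members of each comparison and the most abundant member of each subfamily. The members and lists were chosen with earlier results of these data known.

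Alternatives were pseudocounts of 0.1 and 5, no filter, a filter at 5 TPM, median-of-ratios scaling, quantile normalization, Mup and mitochondrial genes left out of the total, the GC trend removed, only the groups compared, no trend and robust options, a replicate block, and libraries left out. Chosen after seeing the data were median-of-ratios scaling with the GC trend removed, and leaving out chow replicate 2 with FGF21 replicate 1.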

Additional observations from a re-analysis of the deposited data

Results flagged for a closer look

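Single libraries stood apart from the other 3 of their group in 12 of 111 groups checked with Dixon's test at its 95% critical value, over the 36 tested members and their sum. Chance alone flags about 1 in 20 groups, and neighbouring copies share reads, so the flags are not independent of each other. Chow replicate 2 held 6 of the 12. It had 6.7 TPM of Cyp2a22, where the other chow libraries had 0.6 to 1.0 TPM, and 3.1 TPM of Cyp2a4, where the others had 0.1 to 0.2 TPM. It also had 9.7 TPM of Cyp2b9 (others 0.1 to 0.3), 176.5 TPM of Cyp2c37 (others 131.1 to 133.7), 3.2 TPM of Cyp2j9 (others 2.4 to 2.5) and 16.1 TPM of Cyp3a59 (others 3.1 to 4.5). FGF21 replicate 1 had 61.5 TPM of Cyp2a4 (others 9.4 to 16.8), 245.7 TPM of Cyp2c67 (others 106.7 to 122.4) and 134.5 TPM of Cyp2c68 (others 41.5 to 56.8). FGF21 replicate 4 had 114.0 TPM of Cyp2c23, where the other FGF21 libraries had 73.0 to 79.7 TPM. MASH vehicle replicate 4 had 337.4 TPM of Cyp2a12 (others 283.0 to 288.8) and 1393.6 TPM of Cyp2d26 (others 1265.4 to 1281.2).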

How the results depend on the processing

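No called member changed direction under any alternative run. Kept calls are counted over the alternatives that tested the member, and the filter at 5 TPM left Cyp2d34 and Cyp2c55 untested. In FGF21 against MASH vehicle, 4 of 5 members called higher and 2 of 2 called lower kept their calls in every alternative that tested them, and Cyp2c54 did not. In MASH vehicle against chow, 13 of 18 called lower kept them, and the 1 called higher, Cyp2a4, did not; it was lost with a pseudocount of 5 (adjusted p = 0.0944) and with the GC trend removed (0.0693). In FGF21 against chow, 2 of 6 called higher (Cyp2a4 and Cyp2d40) and 8 of 15 called lower kept them. For FGF21 against MASH vehicle, 9 members were called higher with the GC trend removed (4.66% of all genes), and 9 with median-of-ratios scaling as well (4.57%). In the fit of only the 2 groups compared, 4 were called lower (2.58% of all genes). Without FGF21 replicates 1 and 3, 5 were called lower in that comparison (11.1% of all genes) and 3 higher in MASH vehicle against chow (35.5%). Without chow replicate 2 and FGF21 replicate 1, 9 were called higher and 8 lower with FGF21 (11.4% and 10.2% of all genes, against 6.02% and 4.28% with every library), and 4 higher on the diet (28.8%). Members called higher on the diet numbered 0 with a pseudocount of 5 (28.1% of all genes) and 4 with only the 2 groups compared (36.9%). Same-numbered libraries did not deviate together in every pair: Pearson's r over genes of their deviations from the group means was 0.088 to 0.284 in FGF21 and MASH vehicle, −0.176 to 0.403 in MASH vehicle and chow and −0.123 to 0.405 in FGF21 and chow, so the replicate numbers were not taken as pairs. The replicate block gave 8 higher and 7 lower with FGF21 (8.72% and 5.78% of all genes) and 2 higher on the diet (33.0%). Leaving out 1 library at a time gave 4 to 7 higher and 2 to 4 lower with FGF21, 0 to 3 higher and 14 to 18 lower on the diet, and 5 to 7 higher and 12 to 18 lower in FGF21 against chow; the 4 lower with FGF21 came without FGF21 replicate 1 or chow replicate 2, the 0 higher on the diet without MASH vehicle replicate 2 or chow replicate 3 or 4, 2 without FGF21 replicate 1 or 4 or MASH vehicle replicate 4, and 3 without chow replicate 2. The causes were not tested. Of 48 group sums by subfamily and in all, 12 moved by over 1 SD with Mup and mitochondrial genes left out of the total and 5 with median-of-ratios scaling. Members under a few TPM rest on values rounded to 1 decimal.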
